A study of Homo sapiens with 2 samples.

Results

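The xenobiotic metabolism enzyme genes described here encode the cytochromes P450 (CYP), alcohol dehydrogenases (ADH), aldehyde dehydrogenases (ALDH), UDP-glucuronosyltransferases (UGT1A and UGT2), sulfotransferases (SULT) and soluble and kappa-class glutathione S-transferases (GST). They were chosen by gene symbol alone, without pseudogenes, CYP51A1 (sterol synthesis) and ALDH18A1 (proline synthesis), and with 1 row per symbol. This gave 55 of the 16424 gene rows, which carry 16222 symbols: 18 CYP, 3 ADH, 14 ALDH, 7 UGT, 4 SULT and 9 GST genes. Other genes of these families were not analysed here.

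PLC/PRF/5 is an established human hepatoma cell line, and 1 such line is a limited model of the liver. Capped RNA 5′ ends were sequenced by cap analysis of gene expression (CAGE). There was 1 library of non-treated cells, collected after 6 h without M2BPGi, and 1 library of M2BPGi-treated cells, given 3 µg/ml for 6 h. M2BPGi is a glycoform of Mac-2-binding protein that is measured in serum as a marker of liver fibrosis, and the comparison asks how hepatoma cells respond to it. With 1 library per condition no difference between the conditions can be tested, so every value below describes these libraries.

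The deposited values are CAGE tags scaled to library size (CPM), rounded to 2 decimals, and their steps gave totals of 24040210 tags without and 24862943 tags with M2BPGi. Each transcript gives 1 tag at its 5′ end whatever its length, so levels are compared between genes on the CPM scale, with no division by length. Log2 ratios of single genes, M2BPGi-treated over non-treated, were computed after adding 1 CPM to both values, which shrinks the ratios of low genes. For log2 ratios of summed CPM this addition was not made. Intervals are 95% Clopper-Pearson intervals of the log2 ratio of the tags, without that addition, and cover counting error only.

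In the liver, foreign compounds are typically made more polar in phase I, by oxidation through CYP enzymes and dehydrogenases, and are then joined to glucuronic acid, sulfate or glutathione in phase II. Many of the same enzymes act on the body's own sterols, bile acids, vitamins, retinoids and fatty acids. Hepatoma lines are known to keep only some of the drug-metabolising enzymes of hepatocytes.

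The hepatoma label was compared with marker genes. All 15 hepatocyte and hepatoma markers were listed with a mean of at least 1 CPM, and their sum was 4804 CPM without and 4460 CPM with M2BPGi. KRT18, a keratin of simple epithelia, was the most abundant of them with 1250 and 1592 CPM. AFP, the fetal serum protein made by many hepatomas, had 695 and 566 CPM, whereas ALB, the gene of albumin, had 8.82 and 7.04 CPM. Of the 15 markers 9 were lower and 6 higher in M2BPGi-treated cells. Their intervals were below 0 for 9 and above 0 for 4, against 31.5% and 22.8% of all genes with a mean of at least 1 CPM. Among the serum protein genes, FGB had 950 and 623 CPM and SERPINA1 671 and 455 CPM, while APOA2 had 241 and 261 CPM. TF, APOB and TTR were also lower, with log2 ratios of -0.60, -0.46 and -0.40, and APOA1 had 4.37 and 4.63 CPM (interval -0.31 to 0.48). Of 7 macrophage markers 3 were listed. PTPRC and CSF1R were at 0 in both libraries, where a count of 0 allows up to 0.125 CPM without and 0.121 CPM with M2BPGi, and LYZ held the whole sum with 32.1 and 29.2 CPM. The 2 listed of 7 stellate cell and fibroblast markers summed to 5.20 and 4.18 CPM, mostly COL3A1 with 4.53 and 3.42 CPM. The 3 listed of 4 bile duct markers summed to 177 and 167 CPM, of which KRT19 took 164 and 156 CPM. The 4 endothelial markers were not analysed here. The part of these marker differences in the results below was not tested, and in such bulk samples fewer cells of a type and less RNA per cell cannot be told apart.

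All 55 genes had tags in both libraries. Together they took 4382 CPM without and 4820 CPM with M2BPGi, that is 0.438% and 0.482% of all tags, a log2 ratio of the sums of 0.14 (interval 0.13 to 0.15). GSTP1 alone made up 45.0% and 50.0% of this sum, and without it the log2 ratio of the sums was 0.00. ALDH1A1 made up another 24.3% and 20.8%. By mean CPM, 6 genes (10.9%) were under 1, 19 (34.5%) from 1 to under 10, 25 (45.5%) from 10 to under 100 and 5 (9.09%) at 100 or more. Among all 16424 rows these shares were 16.4%, 25.9%, 45.9% and 11.7%. The repertoire was thus led by a glutathione S-transferase and a retinaldehyde dehydrogenase, while no CYP or UGT gene reached 100 CPM.

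**Figure D1:**
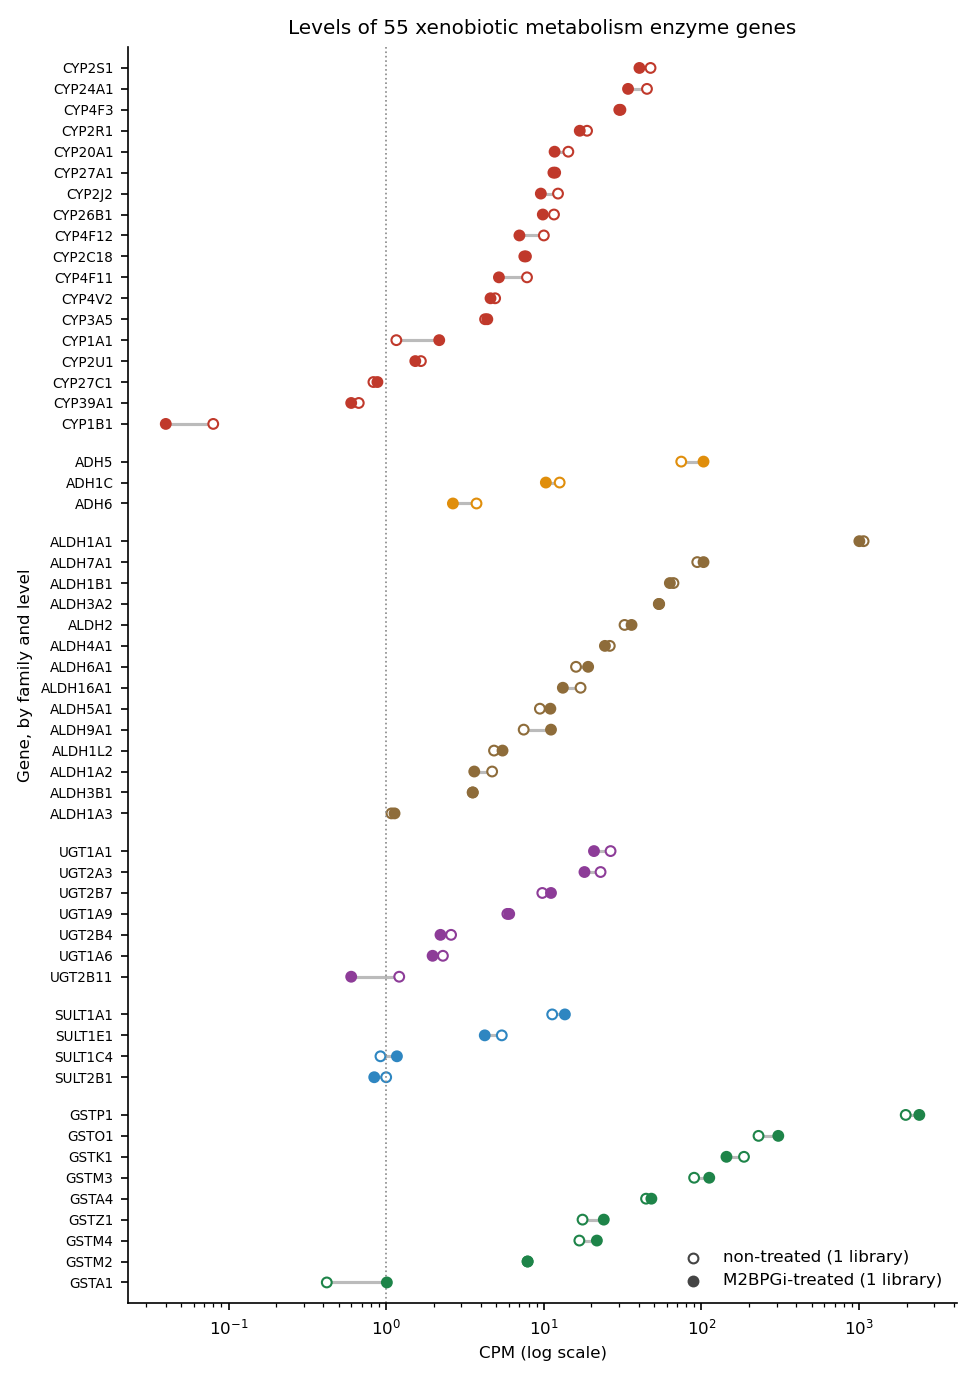
CPM (log scale) of the 55 genes, grouped by family and ordered by mean, with an open circle for the non-treated and a filled circle for the M2BPGi-treated library; the dotted line marks 1 CPM. GSTP1 with 1974 and 2408 CPM and ALDH1A1 with 1067 and 1003 CPM stand far to the right of the other genes.

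A mean of at least 1 CPM was reached by 49 genes. Below it were CYP1B1, CYP27C1, CYP39A1, GSTA1, SULT2B1 and UGT2B11. Among the 49 genes the median log2 ratio was -0.03, with quartiles of -0.26 and 0.17, and 21 genes were higher, 27 lower and 1 equal in M2BPGi-treated cells. The 13724 genes of the whole table with the same filter had a median of -0.05 and quartiles of -0.26 and 0.14, a spread close to that of the enzyme genes. With the libraries rescaled to a median of 0 over all genes, the enzyme median turned from -0.03 to 0.02, with 26 genes higher and 23 lower.

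At a threshold of 1.5-fold, 0 of the 49 genes were higher and 0 lower, against 1.60% and 4.04% of all genes. At 2-fold the counts were also 0 and 0, against 0.240% and 0.430%. The interval lay above 0 for 12 genes and below 0 for 13, while 22.8% and 31.5% of all genes had such intervals. After the rescaling these counts were 14 and 11, since the intervals of ADH1C and ADH6 then included 0 and those of ALDH5A1 and GSTA4 lay above 0. Intervals narrow with more tags, so such shares depend on level. Of the 9464 genes of the whole table with a mean of at least 10 CPM, 2731 had intervals above 0 and 3290 below. Of the 30 enzyme genes at that level, 10 had intervals above 0 and 10 below. The ratios ran from -0.51 for CYP4F11 to 0.55 for CYP1A1, inside or just past the central 95% of all genes, which ran from -0.67 to 0.52. CYP1A1 passed 1.5-fold after the rescaling (log2 ratio 0.59) or with 0.1 CPM added in place of 1 (0.85), and had a log2 ratio of 0.22 with 5 CPM added, below the 0.45 of ADH5.

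**Figure D2:**
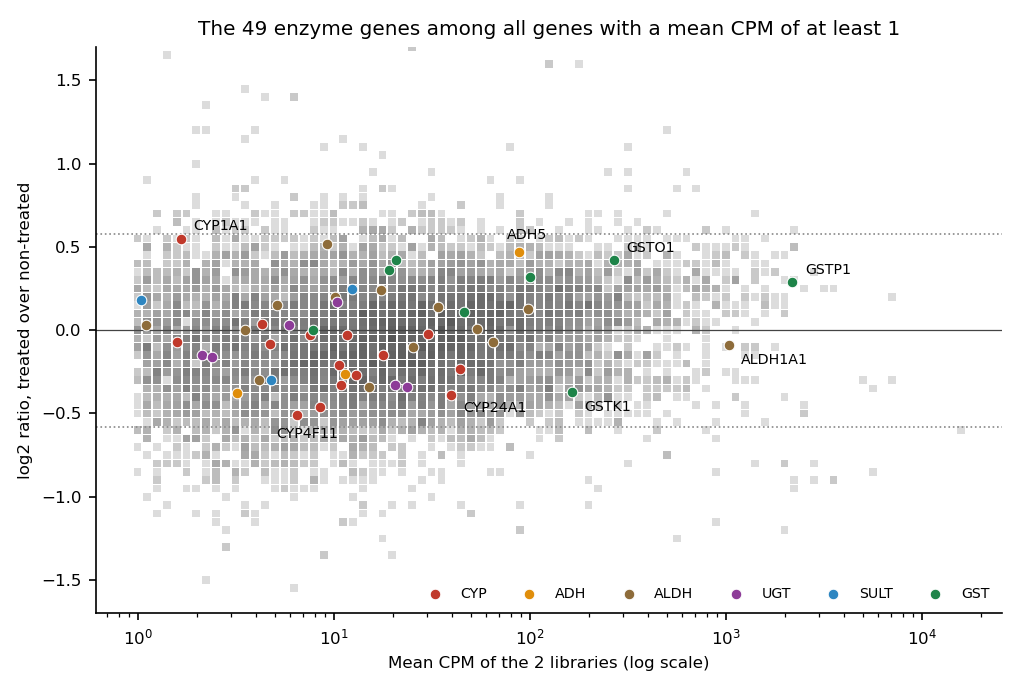
Log2 ratio, M2BPGi-treated over non-treated, against the mean CPM (log scale) for all genes with a mean of at least 1 CPM (grey squares, darker with more genes; 29 genes lie beyond the vertical range) and for the 49 enzyme genes (coloured by family). The dotted lines mark 1.5-fold, and all 49 enzyme genes lie between them.

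The family medians lay on both sides of that of all genes, of which 7826 of 13724 were lower and 5881 higher. The GST genes had a median log2 ratio of 0.30, with 6 of 8 higher, and the CYP genes a median of -0.15, with 13 of 15 lower, or 10 of 15 after the rescaling. The UGT genes also had a median of -0.15, with 4 of 6 lower. The ALDH genes had a median of 0.02, with 8 of 14 higher, and the SULT genes a median of 0.18, with 2 of 3 higher. The SULT median is the value of SULT1C4, with 0.92 and 1.17 CPM. This gene passed the filter only through the M2BPGi-treated library, and without a filter the median over 4 genes was 0.03. The ADH genes had a median of -0.26, with 2 of 3 lower, which turned to 0.10 when a mean of at least 10 CPM was required and 2 genes were left. The medians of the other families kept their sign with the other added values, filters and scaling that were tried, but not their size. A mean of at least 10 CPM, however, left 3 UGT genes and only 1 SULT gene, SULT1A1. The CYP median ran from -0.08 to -0.22, the UGT median from -0.07 to -0.33, the SULT median from 0.03 to 0.27, the ALDH median from 0.01 to 0.06 and the GST median from 0.29 to 0.35. These differences between families were not tested.

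**Figure D3:**
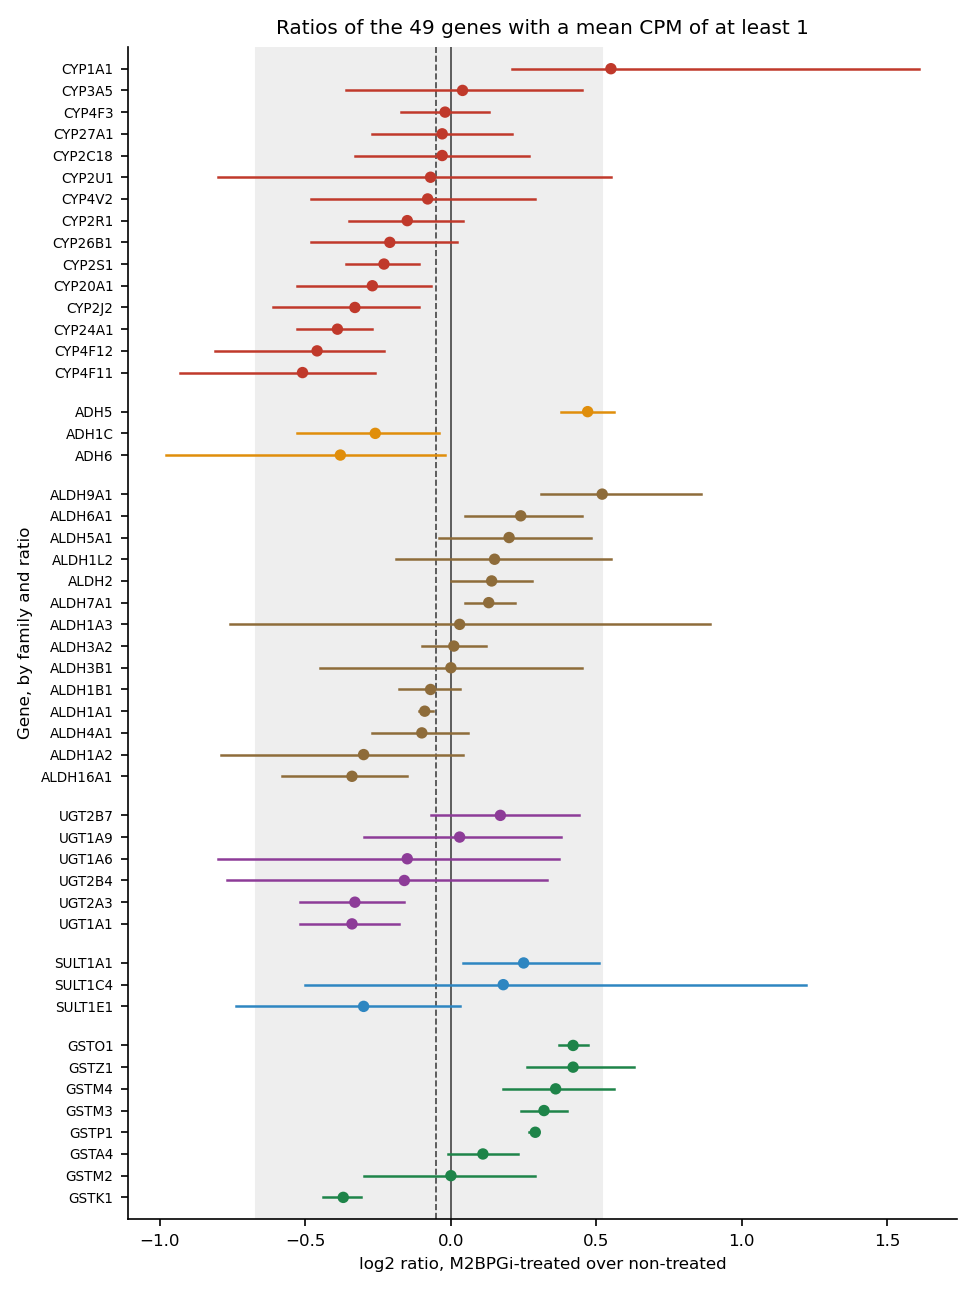
Log2 ratio, M2BPGi-treated over non-treated, (points, 1 CPM added) with the 95% counting interval of the tag ratio (lines, nothing added, so a point need not be central) for the 49 genes by family. The dashed line is the median of all genes and the grey band their central 95%; 5 of the 8 GST intervals lie above 0 (22.8% of all genes), and 6 of the 15 CYP intervals lie below 0 (31.5% of all genes).

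In phase I, the CYP genes summed to 231 CPM without and 198 CPM with M2BPGi, a log2 ratio of -0.22 (interval -0.28 to -0.17). Their intervals were below 0 for 6 of 15 genes, above 0 for 1 and included 0 for 8, against 31.5% of all genes below and 22.8% above. By role, the 5 fatty acid and eicosanoid genes had a median of -0.08 with all 5 lower, or 4 after the rescaling. The 4 sterol, bile acid, steroid and vitamin genes past the filter, of 6, had a median of -0.18 with all 4 lower, or 3 after the rescaling, when CYP27A1 turned to 0.02. The 5 genes of the drug-oxidising families past the filter, of 6, had 2 higher and 3 lower and a median of -0.03, which turned to 0.02 after the rescaling. The roles put CYP2J2, which also acts on a fatty acid, with the drug-oxidising families. With it in the fatty acid group, a choice made after the values were seen, the medians were 0.00 over 4 drug-oxidising genes and -0.20 over 6 fatty acid genes. Of the fatty acid genes, CYP4F3 had 30.6 and 30.1 CPM, and its log2 ratio of -0.02 turned to 0.03 after the rescaling. It encodes a hydroxylase of leukotriene B4 and of long-chain fatty acids.

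Among the drug-oxidising families, CYP2S1 (ENSG00000167600) was the most abundant CYP gene, with 47.5 CPM without and 40.4 CPM with M2BPGi, a log2 ratio of -0.23 (interval -0.36 to -0.11). CYP2J2, an epoxygenase of arachidonic acid, had 12.3 and 9.57 CPM and a log2 ratio of -0.33 (interval -0.61 to -0.11). Both were thus lower beyond counting error. CYP3A5, of the subfamily that oxidises a large share of prescribed drugs, had only 4.24 and 4.38 CPM, and CYP2C18 had 7.70 and 7.52 CPM. Their intervals, -0.36 to 0.45 and -0.33 to 0.27, included 0.

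CYP1A1 (ENSG00000140465), which oxidises polycyclic aromatic hydrocarbons and is the classic target of the aryl hydrocarbon receptor (AHR), rested on few tags. It had 28 tags without and 54 tags with M2BPGi, or 1.16 and 2.17 CPM, a log2 ratio of 0.55 (interval 0.21 to 1.61). Its relative CYP1B1, another AHR target, had 2 and 1 tags, which is under the level that a count of 0 allows. At this depth a difference in CYP1B1 was not detectable.

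CYP24A1 (ENSG00000019186), which inactivates vitamin D, had 45.1 CPM without and 34.2 CPM with M2BPGi. Its log2 ratio of -0.39 (interval -0.53 to -0.27) was the lowest of all 30 enzyme genes with a mean of at least 10 CPM. CYP2R1, which makes 25-hydroxyvitamin D in the liver, had 18.8 and 16.9 CPM (interval -0.35 to 0.04). CYP27A1, the sterol hydroxylase of bile acid synthesis in mitochondria, had 11.8 and 11.5 CPM, and CYP26B1, which breaks down retinoic acid, had 11.6 and 9.85 CPM. The intervals of both included 0, at -0.27 to 0.21 and -0.48 to 0.02. CYP20A1, a CYP without an established substrate, had 14.3 and 11.7 CPM, a log2 ratio of -0.27 (interval -0.53 to -0.07).

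With 1 CPM added, CYP4F11 and CYP4F12, hydroxylases of fatty acid chains, had the lowest ratios of the 49 genes. CYP4F11 (ENSG00000171903) had 7.82 CPM without and 5.19 CPM with M2BPGi, a log2 ratio of -0.51 (interval -0.93 to -0.26). CYP4F12 had 10.0 and 7.00 CPM, a log2 ratio of -0.46 (interval -0.81 to -0.23). Part of the CYP4F12 transcript is 95.3% identical to the pseudogene CYP4F24P over 127 nt, and part of CYP4F3 is 95.3% identical to CYP4F2 over 232 nt, so some of their tags could belong to either copy. For CYP4F11 no copy was found at this identity. CYP4V2, a fatty acid hydroxylase of the same family, had 4.91 and 4.59 CPM, and CYP2U1 had 1.66 and 1.53 CPM. Their intervals, -0.48 to 0.29 and -0.80 to 0.55, included 0. CYP4V2 overlaps KLKB1 on the same strand with a matching sequence. Below the filter, CYP39A1, an oxysterol hydroxylase of bile acid synthesis, had 0.67 and 0.60 CPM, and CYP27C1, which acts on retinoids, had 0.83 and 0.88 CPM.

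Of the alcohol dehydrogenase genes, ADH5 (ENSG00000197894), whose enzyme oxidises the glutathione adduct of formaldehyde and is made in most tissues, had 74.4 CPM without and 103 CPM with M2BPGi. Its log2 ratio of 0.47 (interval 0.38 to 0.56) was the highest among the enzyme genes with a mean of at least 10 CPM. The first part of its transcript is 95.8% identical to the pseudogene ADH5P3 over 501 nt, and a further listed copy, ADH5P4, had 1.21 and 1.37 CPM. The ethanol-oxidising class I gene ADH1C had 12.6 and 10.3 CPM, a log2 ratio of -0.26 (interval -0.53 to -0.04), and is 95.2% identical to ADH1A over 210 nt. It also overlaps ADH1B on the same strand with a matching sequence. ADH6 had 3.74 and 2.65 CPM, a log2 ratio of -0.38 (interval -0.98 to -0.02). Since ADH5 was by far the most abundant, the ADH sum was higher, with 90.7 and 116 CPM, although 2 of the 3 genes were lower.

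The aldehyde dehydrogenase genes summed to 1404 CPM without and 1351 CPM with M2BPGi, a log2 ratio of -0.05 (interval -0.08 to -0.03). Most of it was ALDH1A1 (ENSG00000165092), which makes retinoic acid from retinaldehyde and ranked 103 among all genes by mean CPM. It had 1067 and 1003 CPM, a log2 ratio of -0.09 (interval -0.11 to -0.06), and of -0.04 after the rescaling. ALDH7A1, an enzyme of lysine breakdown, was next with 94.0 and 103 CPM and a log2 ratio of 0.13 (interval 0.05 to 0.22). Its transcript is 97.4% identical to the pseudogene ALDH7A1P1 over 500 nt. ALDH2, the mitochondrial enzyme that clears acetaldehyde after ethanol, had 32.5 and 36.0 CPM (interval 0.00 to 0.28).

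ALDH1B1, a mitochondrial relative of ALDH2, had 66.4 CPM without and 63.0 CPM with M2BPGi, and ALDH3A2, the fatty aldehyde dehydrogenase, had 53.6 and 53.9 CPM. Their intervals, -0.18 to 0.03 and -0.10 to 0.12, included 0. ALDH16A1 had 17.1 and 13.2 CPM, a log2 ratio of -0.34 (interval -0.58 to -0.15), the lowest of the family. ALDH9A1, which oxidises aminoaldehydes including one in carnitine synthesis, had 7.45 and 11.1 CPM, a log2 ratio of 0.52 (interval 0.31 to 0.86), the highest of the family. ALDH6A1, of valine breakdown, had 16.0 and 19.1 CPM (interval 0.05 to 0.45). The ALDH genes with an interval above 0 were ALDH2, ALDH6A1, ALDH7A1 and ALDH9A1, and those with an interval below 0 were ALDH1A1 and ALDH16A1.

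The other ALDH genes had intervals that included 0. ALDH4A1, of proline breakdown, had 26.2 and 24.4 CPM, and ALDH5A1, which clears a breakdown product of the transmitter GABA, had 9.44 and 11.0 CPM. ALDH1L2, of mitochondrial folate metabolism, had 4.83 and 5.47 CPM. The relatives of ALDH1A1 that also make retinoic acid were low, ALDH1A2 with 4.70 and 3.62 CPM and ALDH1A3 with 1.08 and 1.13 CPM. ALDH3B1 was the gene with equal values, 3.54 CPM in both libraries, and is 96.4% identical to ALDH3B2 over 196 nt. ALDH2, ALDH16A1 and ALDH4A1 each overlap a further annotated gene on the same strand with a matching sequence. ALDH1A1 carried nearly all tags of the retinaldehyde dehydrogenase genes.

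In phase II, the UGT genes summed to 71.1 CPM without and 60.8 CPM with M2BPGi, a log2 ratio of -0.23 (interval -0.33 to -0.13). UGT1A1 (ENSG00000241635), which conjugates bilirubin, had 26.5 and 20.8 CPM, a log2 ratio of -0.34 (interval -0.52 to -0.18). UGT2A3, a transferase with bile acids among its substrates, had 22.9 and 18.1 CPM, a log2 ratio of -0.33 (interval -0.52 to -0.16). Of the 6 UGT genes past the filter, these 2 were lower beyond counting error, as were 31.5% of all genes. UGT2B7, which conjugates morphine and steroids, had 9.78 and 11.1 CPM, and UGT1A9 had 5.87 and 6.03 CPM. UGT2B4 had 2.58 and 2.21 CPM, and UGT1A6, of phenol conjugation, had 2.29 and 1.97 CPM. The intervals of these 4 genes included 0. UGT1A genes have first exons of their own and share the rest, so a tag at the 5′ end can in principle tell them apart. The start of an annotated UGT1A6 transcript matches 8 other UGT1A genes, however, and how tags of such genes were assigned is not known. UGT2B7 is 95.5% identical to UGT2B10 over 243 nt.

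UGT2B11, below the filter, had 29 tags without and 15 tags with M2BPGi (an interval below 0 that ended at -0.05), and its transcript is 96.6% identical to UGT2B28 over 493 nt. It has 6 copies elsewhere, among them UGT2B7, a measured gene with 235 and 276 tags, so its tags could belong to any of these. The CYP and UGT genes together, most of which encode enzymes of the endoplasmic reticulum membrane, had a median log2 ratio of -0.15 over 21 genes, with 17 lower and 4 higher. Among all genes 7826 of 13724 were lower. After the rescaling, 10 of 15 CYP genes and 4 of 6 UGT genes were lower. The CYP and UGT intervals were below 0 for 8 genes and above 0 for 1, where 31.5% and 22.8% of all genes had such intervals.

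The sulfotransferase genes were low, with a sum of 18.6 CPM without and 19.8 CPM with M2BPGi (interval of the log2 ratio -0.09 to 0.28). SULT1A1, which sulfates phenols, had 11.3 and 13.6 CPM, a log2 ratio of 0.25 (interval 0.04 to 0.51). It has 8 copies elsewhere, among them SULT1A2 with 97.6% identity over 500 nt, so its tags could belong to any of these. SULT1E1, the oestrogen sulfotransferase, had 5.41 and 4.22 CPM, and SULT1C4 had 0.92 and 1.17 CPM. Their intervals, -0.74 to 0.03 and -0.50 to 1.22, included 0. SULT2B1, which sulfates cholesterol, was below the filter with 24 and 21 tags.

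The glutathione S-transferase genes summed to 2567 CPM without and 3073 CPM with M2BPGi, a log2 ratio of 0.26 (interval 0.24 to 0.28). They made up 58.6% and 63.8% of the tags of all 55 genes. GSTP1 (ENSG00000084207), the pi-class enzyme that is low in normal hepatocytes, ranked 22 among all genes by mean CPM. It had 1974 and 2408 CPM, a log2 ratio of 0.29 (interval 0.27 to 0.30). GSTO1 (ENSG00000148834), an omega-class enzyme that reduces rather than conjugates its substrates, had 230 and 307 CPM, a log2 ratio of 0.42 (interval 0.37 to 0.47). For GSTP1, GSTO1, GSTM3, GSTK1 and GSTZ1 no copy elsewhere was found.

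GSTM3, of the mu class, had 89.8 CPM without and 112 CPM with M2BPGi, a log2 ratio of 0.32 (interval 0.24 to 0.40). GSTM4, also of the mu class, had 16.8 and 21.7 CPM, a log2 ratio of 0.36 (interval 0.18 to 0.56), but is 95.7% identical to GSTM1 over 460 nt and overlaps GSTM2 on the same strand with a matching sequence. GSTZ1, an isomerase of tyrosine breakdown, had 17.6 and 24.0 CPM, a log2 ratio of 0.42 (interval 0.26 to 0.63). With GSTP1 and GSTO1, these were the 5 of 8 GST genes past the filter that were higher beyond counting error, against 22.8% of all genes. Of these 8 genes, 7 had a mean of at least 10 CPM, a level at which more genes have such intervals. GSTA4, which conjugates aldehydes of lipid peroxidation, had 44.5 and 48.1 CPM (interval -0.01 to 0.23), and GSTM2 had 7.90 and 7.88 CPM (interval -0.30 to 0.29). GSTM2 is 95.1% identical to GSTM5 over 265 nt and overlaps GSTM1 and GSTM4 in the same way, so tags of these genes may not be separated.

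GSTK1 (ENSG00000197448), the kappa-class enzyme of mitochondria and peroxisomes, was the GST gene with an interval below 0. It had 186 CPM without and 144 CPM with M2BPGi, a log2 ratio of -0.37 (interval -0.44 to -0.31). The kappa class is not related in sequence to the soluble GST classes. GSTA1, the main alpha-class enzyme of hepatocytes, was below the filter with 10 and 25 tags (an interval above 0 that began at 0.17), and is 96.2% identical to GSTA2 over 500 nt.

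Promoter sequences are shown because the GST genes past the filter, other than GSTK1 and GSTM2, shared a direction and because CYP1A1 and several GST genes are textbook targets of AHR and of NFE2L2, the regulator of the antioxidant response. RefSeq promoters (GRCh38.p14, 250 bases before to 50 after the annotated start) were matched by symbol for 46 of the 55 genes. The start that these cells used may differ, since the deposited values are per gene. The 250 bases before the start are printed for the 2 most abundant higher GST genes and for GSTK1. They are also printed for CYP4F11 and CYP1A1, the lowest and the highest gene with 1 CPM added. Capitals in the first 4 sequences mark matches, on either strand, to TGANNNNGC, taken here as a loose form of the antioxidant response element core. Those in CYP1A1 mark matches, on either strand, to GCGTG, the core of the AHR-ARNT element. The windows are chr11:67583562-67583811 (plus strand) for GSTP1, chr10:104254642-104254891 (plus strand) for GSTO1, chr7:143263191-143263440 (plus strand) for GSTK1, chr19:15934868-15935117 (minus strand) for CYP4F11 and chr15:74725529-74725778 (minus strand) for CYP1A1.
GSTP1: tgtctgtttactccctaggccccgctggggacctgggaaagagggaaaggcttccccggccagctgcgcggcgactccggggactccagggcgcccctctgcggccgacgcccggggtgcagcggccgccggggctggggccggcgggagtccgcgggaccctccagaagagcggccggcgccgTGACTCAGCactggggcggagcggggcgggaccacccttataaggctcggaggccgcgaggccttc
GSTO1: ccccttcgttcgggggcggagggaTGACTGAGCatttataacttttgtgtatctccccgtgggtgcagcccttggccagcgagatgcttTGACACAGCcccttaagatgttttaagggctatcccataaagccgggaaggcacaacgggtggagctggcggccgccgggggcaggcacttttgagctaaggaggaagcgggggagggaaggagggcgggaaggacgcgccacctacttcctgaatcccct
GSTK1: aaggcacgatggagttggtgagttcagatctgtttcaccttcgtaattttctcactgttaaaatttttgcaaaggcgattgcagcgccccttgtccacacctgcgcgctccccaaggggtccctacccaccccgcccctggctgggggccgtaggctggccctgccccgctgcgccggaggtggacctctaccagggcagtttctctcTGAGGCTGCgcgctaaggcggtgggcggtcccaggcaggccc
CYP4F11: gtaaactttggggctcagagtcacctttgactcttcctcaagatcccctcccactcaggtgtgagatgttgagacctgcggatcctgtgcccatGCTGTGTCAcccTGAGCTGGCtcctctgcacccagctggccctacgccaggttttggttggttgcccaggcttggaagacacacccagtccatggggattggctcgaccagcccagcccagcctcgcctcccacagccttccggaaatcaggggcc
CYP1A1: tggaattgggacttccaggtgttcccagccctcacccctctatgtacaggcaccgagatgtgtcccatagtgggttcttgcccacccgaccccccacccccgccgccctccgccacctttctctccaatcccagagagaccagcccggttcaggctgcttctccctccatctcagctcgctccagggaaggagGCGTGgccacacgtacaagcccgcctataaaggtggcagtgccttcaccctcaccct

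GSTP1 held TGACTCAGC from 66 bases before the start and a further match, TGAGTACGC, after it. GSTO1 held TGACTGAGC from 226 and TGACACAGC from 161 bases before the start. GSTK1, lower in M2BPGi-treated cells, held TGAGGCTGC from 42 bases before the start. CYP4F11, also lower, held TGACACAGC on the strand opposite to the printed one, 156 bases before the start. It held TGAGCTGGC on the printed strand, 144 bases before the start. In CYP1A1 the match of GCGTG began 57 bases before the start.

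The letters TGANNNNGC were found in 7 of the 8 GST promoters of genes past the filter (87.5%), all but that of GSTZ1. In GSTP1, GSTO1 and GSTA4 a match began with TGAC, while those of GSTK1, GSTM2, GSTM3 and GSTM4 began with TGAG or TGAT. The letters TGANNNNGC were also found in 7 of the 12 CYP promoters of genes past the filter (58.3%), 2 of 11 for ALDH, 1 of 5 for UGT, 1 of 3 for ADH and 0 of 2 for SULT. They were in 19 of all 46 enzyme promoters (41.3%), 42.9% of the 8799 promoters of genes past the filter and 42.1% of all 27305 promoters. Of the enzyme genes past the filter with a promoter, 7 of 18 higher genes and 11 of 22 lower genes held them. The difference between higher and lower genes was not tested.

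The letters GCGTG were found in 15 of 46 enzyme promoters (32.6%), against 52.3% for genes past the filter and 36.3% for all promoters. By family, past the filter, they were in 3 of 8 promoters for GST (37.5%), 5 of 12 for CYP (41.7%), 3 of 11 for ALDH, 2 of 5 for UGT, 1 of 3 for ADH and 0 of 2 for SULT. Of the same higher and lower genes, 8 of 18 and 6 of 22 held them. The nuclear receptor element AGGTCA was in 6 of 46 (13.0%), against 9.59% and 13.9%, and the TATA box TATAAA in 8 of 46 (17.4%), against 5.03% and 12.0%. Both strands were searched for each motif, and matches of different motifs that overlap were counted for each. A match of a few letters is a description of the sequence and not a site.

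Outside the enzyme families, 3 lists of related genes were described in the same way. The AHR battery was also described, and it shares CYP1A1, CYP1B1 and UGT1A6 with the enzyme genes and NQO1 with the list of other enzymes. The receptors and regulators list holds 25 genes, of which 21 were measured, all past the filter. Their median log2 ratio was 0.13, with 16 higher and 5 lower, and their intervals were above 0 for 9 genes and below 0 for 3, where 22.8% and 31.5% of all genes had such intervals. Of the 21 genes, 18 had a mean of at least 10 CPM, a level at which more genes have such intervals. NFE2L2 itself was the most abundant, with 199 CPM without and 206 CPM with M2BPGi (interval -0.01 to 0.10). KEAP1, the gene of its inhibitor, had 21.1 and 30.0 CPM, a log2 ratio of 0.49 (interval 0.34 to 0.67). The liver factor genes FOXA2 and CEBPB were also among the highest, with 12.8 and 18.4 CPM and with 113 and 155 CPM.

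RXRB, a partner of many nuclear receptors, had 16.5 CPM without and 9.81 CPM with M2BPGi, a log2 ratio of -0.70 (interval -0.99 to -0.52). It was the only one of the 21 genes past 1.5-fold, where 4.04% of all genes were lower, and with 5 CPM added its log2 ratio was -0.54, short of 1.5-fold. ONECUT1, a liver transcription factor, had 102 and 85.1 CPM and a log2 ratio of -0.25 (interval -0.34 to -0.17). AHR had 78.5 and 72.5 CPM, a log2 ratio of -0.11 (interval -0.21 to -0.02), and of -0.06 after the rescaling.

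The AHR battery, a list of 8 AHR targets, had 5 measured genes and 4 past the filter, with a median log2 ratio of 0.20 that was 0.08 with 5 CPM added and turned to -0.05 when CYP1B1 was included. The 4 genes split evenly. Higher were CYP1A1 and NQO1, the quinone reductase that is also a target of NFE2L2, with 238 and 350 CPM and a log2 ratio of 0.55 (interval 0.51 to 0.60), which the rescaling took to 0.60, past 1.5-fold. TIPARP, which encodes a repressor of AHR, had 18.2 and 16.2 CPM (interval -0.36 to 0.04), and UGT1A6 had an interval of -0.80 to 0.37. AHRR, ALDH3A1 and CYP1A2 were not analysed here.

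All 23 genes for cofactors and electron supply were past the filter, with a median log2 ratio of 0.09 (0.14 after the rescaling), 15 higher and 8 lower. The intervals were above 0 for 11, against 22.8% of all genes, and below 0 for 8, against 31.5%. All 23 genes had a mean of at least 10 CPM. At that level 2731 of 9464 genes of the whole table had intervals above 0 and 3290 below. Among the highest of the 23 genes was PGD. It encodes an NADPH-producing enzyme of the pentose phosphate pathway and had 141 and 180 CPM, a log2 ratio of 0.34 (interval 0.28 to 0.41). ME1, the malic enzyme of the cytosol, had 39.6 and 49.6 CPM, a log2 ratio of 0.32 (interval 0.20 to 0.45). IDH1, whose enzyme also produces NADPH, was lower with 331 and 317 CPM (interval -0.11 to -0.02). For glutathione, GCLM, GSS and GSR, which serve its synthesis and reduction, had log2 ratios of 0.31, 0.25 and 0.20, and GCLC, the catalytic subunit beside GCLM, had 0.06 (interval -0.06 to 0.18). IDH1 and these 4 genes were named after their values were seen.

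The lowest genes of that list were SLC35B2 and SLC35B3, transporters of the sulfate donor into the Golgi, with 111 and 86.9 CPM and with 96.0 and 76.4 CPM. Their log2 ratios were -0.35 (interval -0.44 to -0.27) and -0.33 (interval -0.42 to -0.24). FDXR, which passes electrons to mitochondrial CYP enzymes, had 14.9 and 11.7 CPM, a log2 ratio of -0.32 (interval -0.57 to -0.12). POR, the reductase that supplies microsomal CYP enzymes with electrons, had 46.5 and 37.9 CPM, a log2 ratio of -0.29 (interval -0.42 to -0.17). The electron carriers FDX1 and CYB5A were higher, with log2 ratios of 0.23 (interval 0.14 to 0.32) and 0.16 (interval 0.03 to 0.30). CYB5B, a cytochrome b5 of the outer mitochondrial membrane, was the most abundant with 473 and 482 CPM (interval -0.01 to 0.07). POR, FDX1 and CYB5A were named after their values were seen.

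Of 45 other phase I and phase II enzyme genes, 28 were measured and past the filter, with a median log2 ratio of 0.01, 14 higher and 14 lower. The median was 0.09 over the 25 genes with a mean of at least 10 CPM and 0.06 after the rescaling. Their intervals were above 0 for 13, against 22.8% of all genes, and below 0 for 8, against 31.5%. With 25 of the 28 genes at a mean of at least 10 CPM, this comparison also depends on level. NQO1 was the highest, followed by AKR1C1, a reductase of steroids and ketones, with 36.6 and 49.1 CPM and a log2 ratio of 0.41 (interval 0.30 to 0.55). Copies were not searched for the genes of the lists, so whether tags of AKR1C1 and AKR1C2 were separated is not known. MAOB, which oxidises amines in mitochondria, had 11.5 and 15.6 CPM, a log2 ratio of 0.40 (interval 0.21 to 0.66). PON2, a lactonase, was the lowest with 527 and 417 CPM and a log2 ratio of -0.34 (interval -0.38 to -0.30). PON3 had 145 and 116 CPM, but PON1 was listed with the same 3497 and 2890 tags, so the tags of these neighbouring genes were not separated, and the counts above hold this measurement for both genes.

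MGST3 was the most abundant of these 28 genes by mean CPM, with 485 and 506 CPM (interval 0.02 to 0.10), and it encodes a membrane-bound glutathione transferase. Its relatives MGST1 and MGST2, named after their values were seen, had 472 and 412 CPM and 121 and 103 CPM, with intervals of -0.24 to -0.16 and -0.31 to -0.15.

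**Figure D4:**
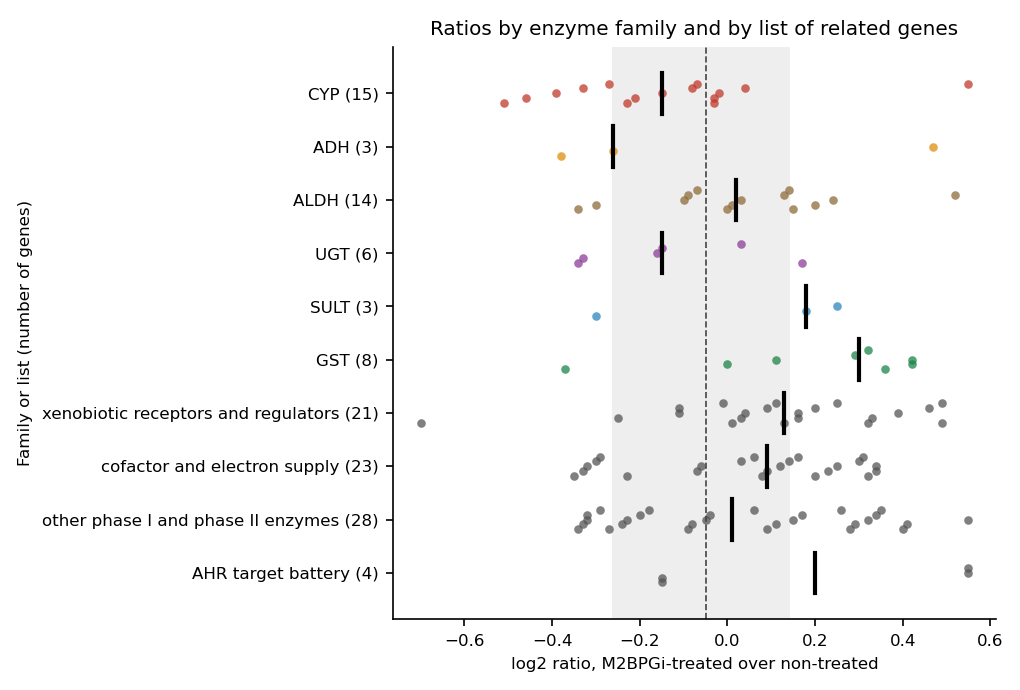
Log2 ratios, M2BPGi-treated over non-treated, for each gene with a mean of at least 1 CPM (points) by enzyme family and by list, with the number of genes in brackets and the median as a black bar. The dashed line and grey band are the median and quartiles of all genes; the GST median of 0.30 is furthest to the right, the ADH median of -0.26 (0.10 with a mean of at least 10 CPM) furthest to the left, and the AHR battery median of 0.20 turns to -0.05 with CYP1B1.

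The ratio moved with transcript length across all genes. The 13271 genes with a length were split into 3 classes of like size by their longest transcript. The median log2 ratio of all genes was 0.02 in the short class (up to 2365 nt), -0.05 in the middle class and -0.11 in the long class (above 4352 nt). Within these classes the GST medians were 0.29 over 3 genes, 0.16 over 4 and 0.42 for 1. The CYP medians were -0.15 for 1 gene, -0.25 over 10 and -0.08 over 4, and the UGT medians 0.00 over 2 and -0.24 over 4. The part of transcript length in these values was not tested further.

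**Figure D5:**
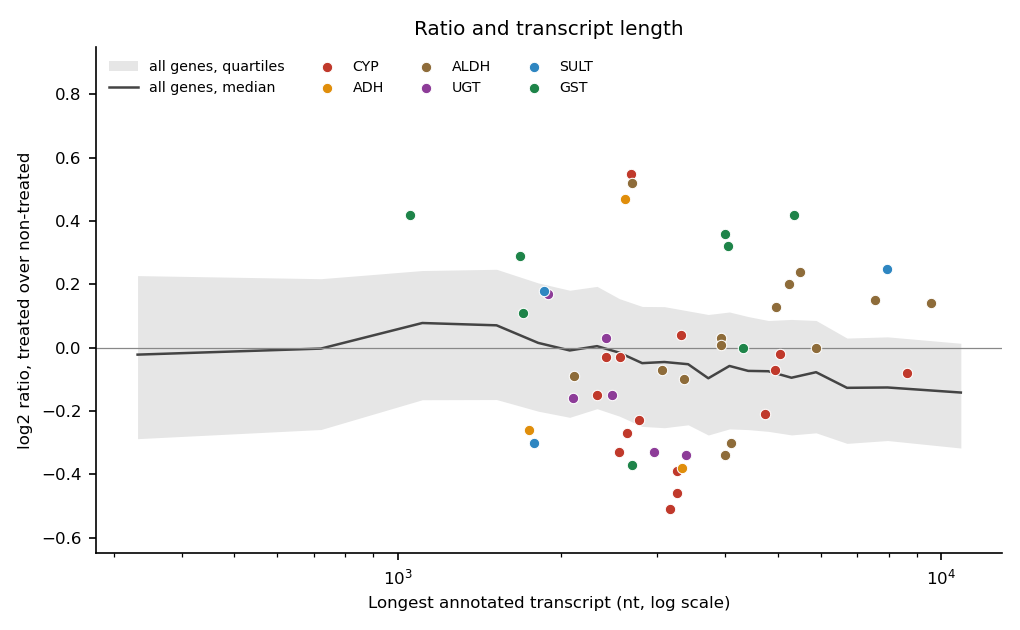
Log2 ratio, M2BPGi-treated over non-treated, against the longest annotated transcript (nt, log scale) for the 49 enzyme genes (points, coloured by family) over the median and quartiles of all genes in 20 bins of length. GSTP1, GSTO1, GSTM3, GSTM4 and GSTZ1 lie above the quartile band, GSTM3 and GSTM4 at similar lengths. The CYP genes lie mostly on or below the line.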

How the data were processed

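CAGE tags of PLC/PRF/5 cells were deposited as CPM per gene, which the authors rounded to 2 decimals. The paper's methods name a mouse genome and BWA, the submitters' notes list BWA, HISAT2 and hg19, and the gene IDs are of human genes. The rule that gave tags to genes is not stated in the sources used here. The CPM steps gave the tag numbers, with 100% of values above 0 whole within 0.0055 CPM. The members and lists were chosen with earlier results of these data known. Named genes were the 5 most abundant genes of each family, those past 1.5-fold, the 5 highest and 5 lowest with a mean of at least 10 CPM, the 3 highest, 3 lowest and the most abundant gene of each list, and the AHR battery. Not every gene that this rule selects is reported. Further genes were named once their values were known. Copies are genes elsewhere in GENCODE v29 with a match of 100 nt or more, at an identity of 95% or higher, to the start (500 nt) of a transcript (BLAST+ 2.17.0). Python 3.11.15, numpy 2.4.6, pandas 2.3.3, scipy 1.17.1 and matplotlib 3.10.9 were used, and the intervals were tested on simulated data.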

Additional observations from a re-analysis of the deposited data

How the results depend on the processing

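Alternatives were an added value of 0.1 or 5 CPM, no filter, a mean of at least 10 CPM, libraries rescaled by the shift of all genes (-0.05), and the families without near-identical genes. Of 91 alternative values of the summaries, 81 kept their sign and moved by no more than counting error (for a count, no more than 1.5 times), 7 moved further and 3 reversed. Of 165 values of 55 of the named genes, 157 stayed within counting error, 7 moved further and 1 reversed. These 55 mix enzyme and list genes and are not the 55 enzyme genes. Other named genes, among them CYP4F11, CYP4F12 and ALDH9A1, were not included. Counting error is wide for low genes: CYP1A1 went from 0.55 to 0.22 with 5 CPM added and the SULT median from 0.18 to 0.03 without a filter.

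After the rescaling, the median of the enzyme genes was 0.02, the log2 ratio of their sums 0.19, that of CYP4F3 0.03, and 1 gene was at least 1.5-fold higher. This gene was CYP1A1, which also made the count 1 with 0.1 CPM added. The ADH median was 0.10 with a mean of at least 10 CPM, which leaves 2 genes, and the AHR battery median was -0.05 without a filter, which adds CYP1B1. The log2 ratio of the sums was 0.00 without GSTP1 and 0.07 without GSTP1 and ALDH1A1. The last alternative was chosen after seeing the data, as were the counts of intervals. Among the 34 genes without a copy or a matching gene on the same strand, 7 intervals were above and 10 below 0, and among the 33 outside near-identical families 9 and 8, against 22.8% and 31.5% of all genes. With 1 row per symbol, 217 of 13592 genes of the whole table were at least 1.5-fold higher and 546 lower, against 219 and 555 of 13724.

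Normalisation factors and a test from a count model were planned and not run, because the tag numbers of the non-treated library did not meet a tolerance for whole tags that is stricter than the rounding. With 1 library per condition no paired analysis was possible, and leaving out a library was not either. The tags limit counting error only, which is small for the abundant genes and large for CYP1A1 and GSTA1, and variation between cultures is not covered by any interval.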
